A study of Mastomys natalensis with 3 samples.

Results

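Stomach cells of animals with a spontaneous gastric carcinoid were compared with stomach cells of animals treated with loxtidine for 8 weeks. The species was Mastomys natalensis, an African rodent prone to tumours of its gastric endocrine cells. Each side of the comparison was 1 array, so 2 of the 3 arrays of the series were compared, and the array from animals given loxtidine for 16 weeks entered the normalization and is given as a further value. All 8740 probe sets that are not array controls were used, of the 8799 on the array, whose probes are rat sequences. Those with exactly 1 gene symbol covered 4736 genes, and 3370 of these reached the floor, an intensity of 12.4, on at least 1 of the 2 arrays compared. A gene at or above the floor is called measured below.

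Per the labels, every sample was total RNA of a cell population enriched for enterochromaffin-like (ECL) cells from the gastric mucosa. The animals of one group had received loxtidine for 8 weeks, the animals of another for 16 weeks, and the remaining sample came from Mastomys in which an ECL cell carcinoid had arisen without the drug. The number of animals behind each sample and their age and sex are not given in the sources used here. The 8-week sample's source is given as ECL cells, whereas gastric mucosa is the source named for the carcinoid and 16-week samples. No lot label was shared between arrays, so a difference of lot and one of group cannot be told apart. An untreated normal stomach was not analysed here.

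ECL cells sit in the acid-secreting mucosa of the stomach and store histamine in secretory vesicles. Gastrin, released by endocrine cells of the antrum, acts on the CCK2 receptor (Cckbr) of ECL cells, makes them release histamine and, when it stays high, makes them multiply. Histamine acts on H2 receptors of parietal cells, which secrete acid. Loxtidine blocks that receptor without reversal, and the resulting lack of acid raises gastrin, so that ECL cells pass from hyperplasia towards carcinoids. Mastomys also form such tumours with age and without treatment. The comparison thus sets a sample from animals with a spontaneous tumour against an early stage under the drug. That sample is called the carcinoid below, although the labels do not say that its cells came from the tumour itself.

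Replicates were lacking, so no test was made, and the number of arrays limited the precision of every value. The folds describe these 2 arrays and not the conditions in general. Disagreement between probe sets of the same gene served as a measure of error between probe sets, with an SD of 0.82 on the log2 scale over 395 pairs. Error between arrays or animals is not covered by that measure. In 39.5% of the pairs the log2 differences lay more than 1 apart. Over every probe set at or above the floor on both arrays the SD was 0.88. In bulk samples, fewer cells of a type and less RNA per cell cannot be told apart.

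The arrays differed in features that touch every gene. The median deposited intensity was 13.8 on the carcinoid array and 10.1 on the 8-week array, and quantile normalization removed a median log2 difference of 0.45. Signal near the 5' end of the GAPDH transcript was weak on the 8-week array, with a ratio of 3' to 5' signal of 8.95 against 2.31 on the carcinoid array. For beta-actin the ratio was high on both, at 16.1 and 11.7. On the 16-week array the median deposited intensity was 13.1 and the ratios were 1.43 for GAPDH and 6.71 for beta-actin. The 8-week array was thus the dimmest of the 3 arrays and had the highest ratios. The 9 bacterial hybridisation controls, which are not Mastomys RNA, lay at a median of -0.55 as deposited and -1.35 after normalization, carcinoid minus 8 weeks. Of 38 control probe sets chosen by name as having no target here, 9 and 8 reached the floor on the carcinoid and 8-week arrays, and 3 and 5 reached 30.0, the pooled 75th percentile. The part of these features in the differences below, including readings highest or lowest at 8 weeks alone, was not tested.

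Among probe sets measured on both arrays, 367 of 3122 (11.8%) were 2-fold or more higher in the carcinoid and 354 (11.3%) 2-fold or more lower. Among genes, with bounds included, 492 of 3370 (14.6%) read at least 2-fold higher and 468 (13.9%) lower, at a median log2 difference of -0.02. A bound is given as "at least" where a gene was measured on only 1 array, and its fold is then taken against the floor. Scaling each array by its median gave 16.2% higher and 12.1% lower, and intensities as deposited gave 26.4% and 5.91%. The share of higher among probe sets at least 2-fold apart was 51% after quantile normalization, 62.7% after median scaling and 87.5% as deposited. With the floor at 30.0 the calls came to 7.47% of genes higher and 6.67% lower. Restricted to the 3417 probe sets designed on ESTs, short reads of cDNA that tend to lie near a transcript's 3' end, they came to 14.9% higher and 11% lower.

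**Figure D1:**
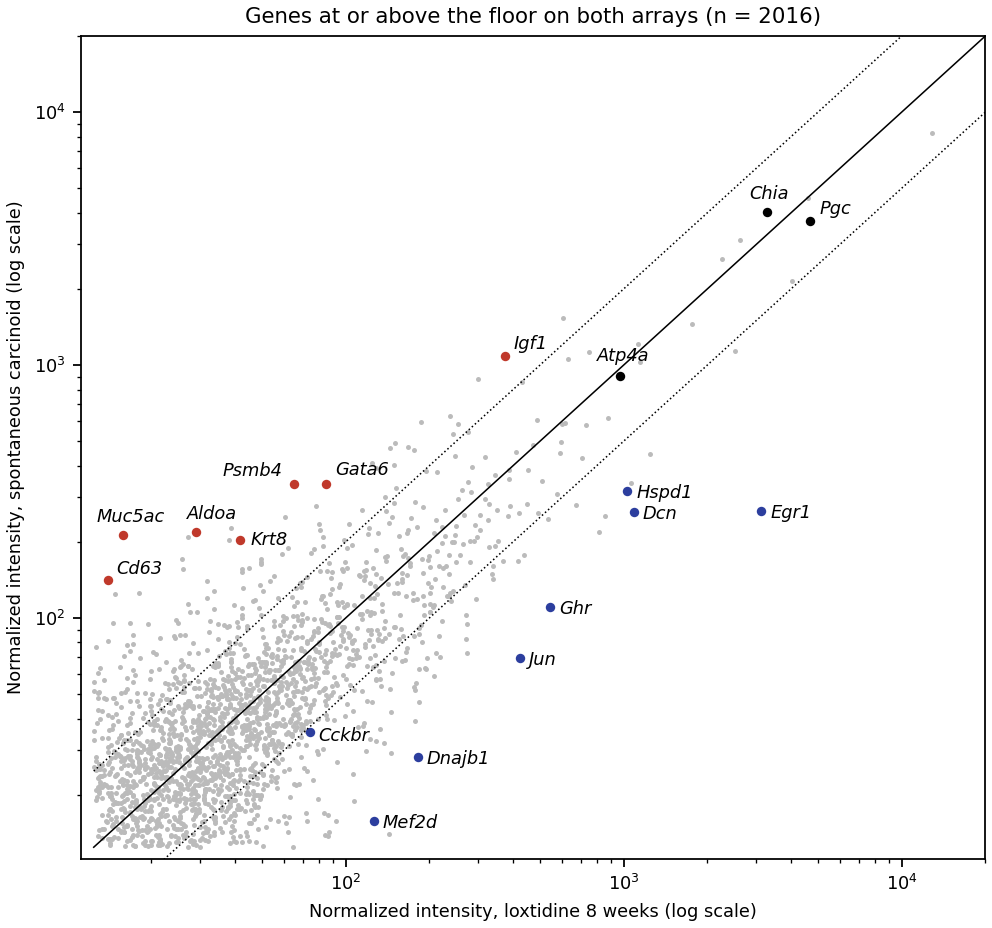
Normalized intensity of the 2016 genes measured on both arrays, with the 8-week array on the x axis and the carcinoid array on the y axis, both on log scales. Each point is 1 gene, the solid line marks equal values and the dotted lines 2-fold; Muc5ac lies farthest above the line among the labelled genes and Egr1 farthest below.

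The firmest differences were sought as genes called at least 2-fold apart with the floor at 30.0 under quantile normalization, and also called with each array scaled by its median and with intensities as deposited, with no measured probe set of the opposite sign. This rule was added after the values had been seen. It kept 118 of 1888 genes (6.25%) as higher in the carcinoid and 41 (2.17%) as lower. The 141 genes that were higher with the floor at 30.0 stayed so under the other scalings, and 23 were then set aside for a probe set of opposite sign. Of the 126 lower genes 49 stayed, and 8 of these were set aside for a probe set of opposite sign. Both other scalings place the median of all genes higher, at 0.07 and 0.45 against -0.02, so they can take away lower calls but hardly higher ones. Probe sets below the floor on both compared arrays were not counted as measured, so they could not set a gene aside. Gata6, Ghr, Cebpb, Nfkbia, Arrb2 and Mcpt1l1 were kept and had such probe sets.

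Genes with several measured probe sets allowed a comparison of probe sets within a gene. All of them read the same RNA on the same 2 arrays, so their agreement is no check on error between arrays or animals. For some genes, such as Gsto1, Pex6 and Arpc1b, the probe sets were also designed on the same sequence. Of 874 such genes, 32 (3.66%) had all of them at least 2-fold higher in the carcinoid and 21 (2.4%) all of them at least 2-fold lower. Besides the gastric mucin Muc5ac, the higher ones included Eif4a2, an RNA helicase of translation initiation, which read 204 in the carcinoid, 38 at 8 weeks and 327 at 16 weeks, a 5.36-fold difference. The glutathione transferases Gsto1 (95.5 against 16.7) and Gstp1 (114 against 27.1) read 5.72-fold and 4.2-fold higher. The peroxisome assembly ATPase Pex6 was 5.85-fold higher (81.2 against 13.9). The actin nucleation subunit Arpc1b (163 against 49.5) and the splicing factor Srsf5 (189 against 61.8) were 3.29-fold and 3.05-fold higher. At 16 weeks Gstp1, Pex6 and Srsf5 read 100, 77.9 and 194, and their other probe sets 48, 34.2 and 54.2, each above its 8-week value. For Gsto1 the probe sets disagreed there, at 87.5 and 9.26.

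Among those lower with all probe sets, the co-chaperone Dnajb1 read 28.2 in the carcinoid, 182 at 8 weeks and 31.3 at 16 weeks, which is 6.46-fold lower in the carcinoid than at 8 weeks. The natriuretic peptide Nppa read 7.2, below the floor, against 95.9, at least 7.75-fold lower. Ctla4, an inhibitory receptor of T cells, was 4.63-fold lower (15.7 against 72.6). The complex I subunit Ndufa6 (85.1 against 217) and the lipid carrier Apoe (60.5 against 147) were 2.55-fold and 2.43-fold lower, but with arrays scaled by their medians both stood under 2-fold, at log2 differences of -0.93 and -0.94. Lct, the lactase of the intestine, was at least 3.98-fold lower (7.36, below the floor, against 49.2).

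The 997 genes at or above 30.0 on both arrays were the best measured. Of these 77 were at least 2-fold higher and 81 lower, with 6 in each direction past 4-fold and a median of -0.07. Those furthest up included the keratin Krt8, the proteasome subunit Psmb4, the translation factor Eif4a2, the transcription factor Gata6, the carboxypeptidase Cpd and the lipid enzyme Ech1. Those furthest down included the transcription factors Egr1, Jun, Junb and Cebpb, the inhibitor Nfkbia, the growth hormone receptor Ghr and the matrix proteoglycan Dcn. Cpd, a carboxypeptidase of the trans-Golgi network, read 140 in the carcinoid, 31.7 at 8 weeks and 75.1 at 16 weeks, 4.41-fold higher. Ech1, which acts in the oxidation of unsaturated fatty acids, read 128, 33.6 and 79 in the same order, 3.81-fold higher.

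The 31 gene lists are described by how many members lay at least 2-fold apart and by the median log2 difference, beside the values for all genes given above. The counts are to be read against 14.6% higher and 13.9% lower over all genes. After median scaling these shares were 16.2% and 12.1%, and as deposited 26.4% and 5.91%. Lists of the ribosome, proteasome, translation and clathrin coat had the highest medians. Lists of endothelium, mast cells, gut hormones, apoptosis and immediate early genes had the lowest.

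**Figure D2:**
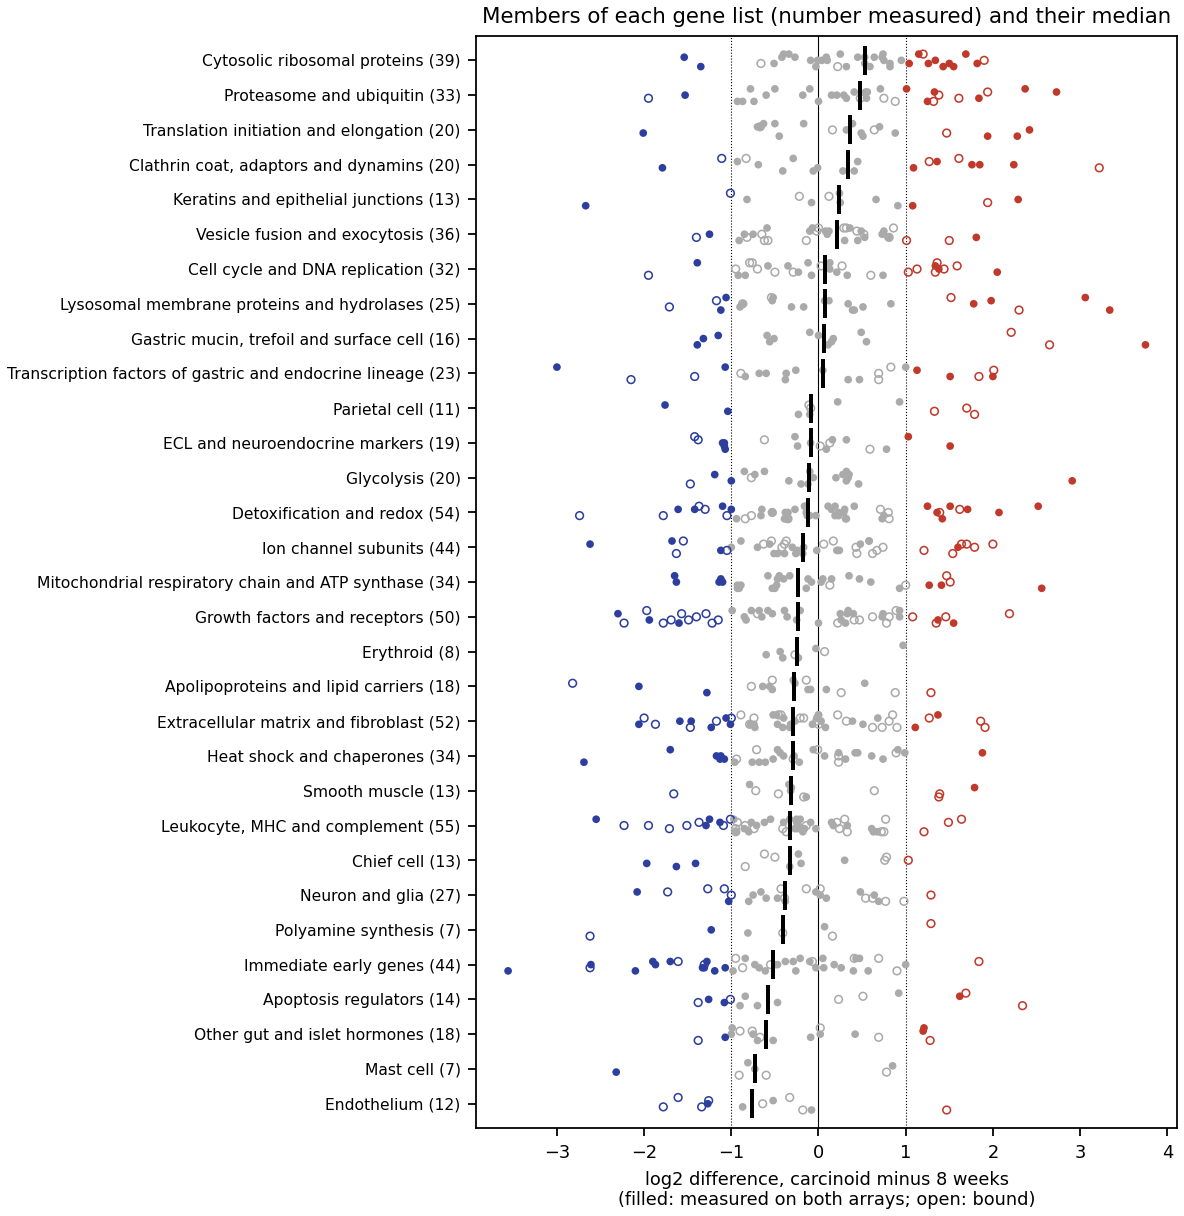
Log2 difference, carcinoid minus 8 weeks, of each measured member of the 31 lists (x axis), with the lists on the y axis ordered by their median (black bar) and the number of measured members in brackets. Filled circles are genes measured on both arrays and open circles bounds, red and blue marking members at least 2-fold higher or lower; the median ran from 0.53 for ribosomal proteins to -0.76 for endothelium.

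Markers of ECL and other neuroendocrine cells were mostly dim and stood on both sides. Of 26 on the array 19 were measured, with 2 at least 2-fold higher and 6 lower, and the median was -0.09 against -0.02 for all genes. Both depended on the scaling, with 2 higher, 4 lower and a median of 0.08 after median scaling, and 3 higher, 2 lower and a median of 0.33 as deposited. The sum over the list was 681 in the carcinoid, 802 at 8 weeks and 941 at 16 weeks.

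Hdc and Slc18a2, which help define an ECL cell, did not show the label clearly. Hdc, the enzyme that makes histamine, read 3.21, 4.42 and 4.78 on the carcinoid, 8-week and 16-week arrays. Slc18a1, a vesicular monoamine transporter of the wider neuroendocrine list and not a defining ECL marker, read 1.8, 1.51 and 3.13. Every one of these values lay below the floor. Each of these genes had 1 probe set, of rat sequence, so little RNA and a poor match to Mastomys RNA cannot be told apart. Slc18a2, the transporter that loads histamine into ECL vesicles, read 23.2, 21.7 and 42.3, which sets the carcinoid and 8 weeks 1.07-fold apart. A further Slc18a2 probe set was below the floor on every array (7.62, 0.872 and 0.867). Chga and Pcsk1, which could not be tied to a probe set with 1 symbol, were not analysed here.

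The gastrin receptor Cckbr read 35.3 in the carcinoid, 74.3 at 8 weeks and 56.5 at 16 weeks, 2.11-fold lower. A second Cckbr probe set was below the floor in the carcinoid and at 8 weeks (2.85 and 2.59) and read 33.4 at 16 weeks. The granule protein Chgb read 17.7, 37.6 and 35.4, 2.12-fold lower, and Syp, a membrane protein of small synaptic-like vesicles, read 26.7, 57.1 and 33.6, 2.14-fold lower. With the arrays scaled by their medians Cckbr and Syp came to -0.89 and -0.98 on the log2 scale and Chgb to -1.03. Pcsk2, a protease that cleaves prohormones, was below the floor in the carcinoid (8.9 against 33) and at least 2.67-fold lower, though a dimmer probe set of Pcsk2 lay at 0.53. The endocrine transcription factor Neurod1 was 2.1-fold lower (14.9 against 31.3).

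Against these stood Isl1, a LIM-homeodomain factor of endocrine precursors, which read 50.4 in the carcinoid, 17.7 at 8 weeks and 43.1 at 16 weeks. It was 2.85-fold higher, and both of its probe sets were (1.33 and 1.51 on the log2 scale). Resp18, a protein of endocrine secretory granules, was 2.04-fold higher (35.4 against 17.4), with a further probe set at 0.02. Pam, which amidates peptide hormones, was bright and nearly level at 126 against 149, but its 6 measured probe sets ran from -1.36 to 2.36. Somatostatin (Sst), the product of D cells, read 150 and 159, 1.06-fold apart.

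Other hormones were few and mixed. Of 18 measured 3 read at least 2-fold higher and 2 lower, at a median of -0.60 (3 and 1 as deposited, with a median of 0.17 against 0.45 for all genes). The neuropeptides Gal (38.5 against 16.7) and Calca (37.6 against 16.4) were 2.31-fold and 2.29-fold higher. Tac1, the precursor of substance P, was at least 2.43-fold higher than the dim 8-week reading (30.1 against 6.69) and read 92.2 at 16 weeks. Gast, which encodes gastrin itself, read 3.86 in the carcinoid, 32.2 at 8 weeks and 8.78 at 16 weeks, so that only the 8-week reading was above the floor and the carcinoid was at least 2.6-fold lower.

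**Figure D3:**
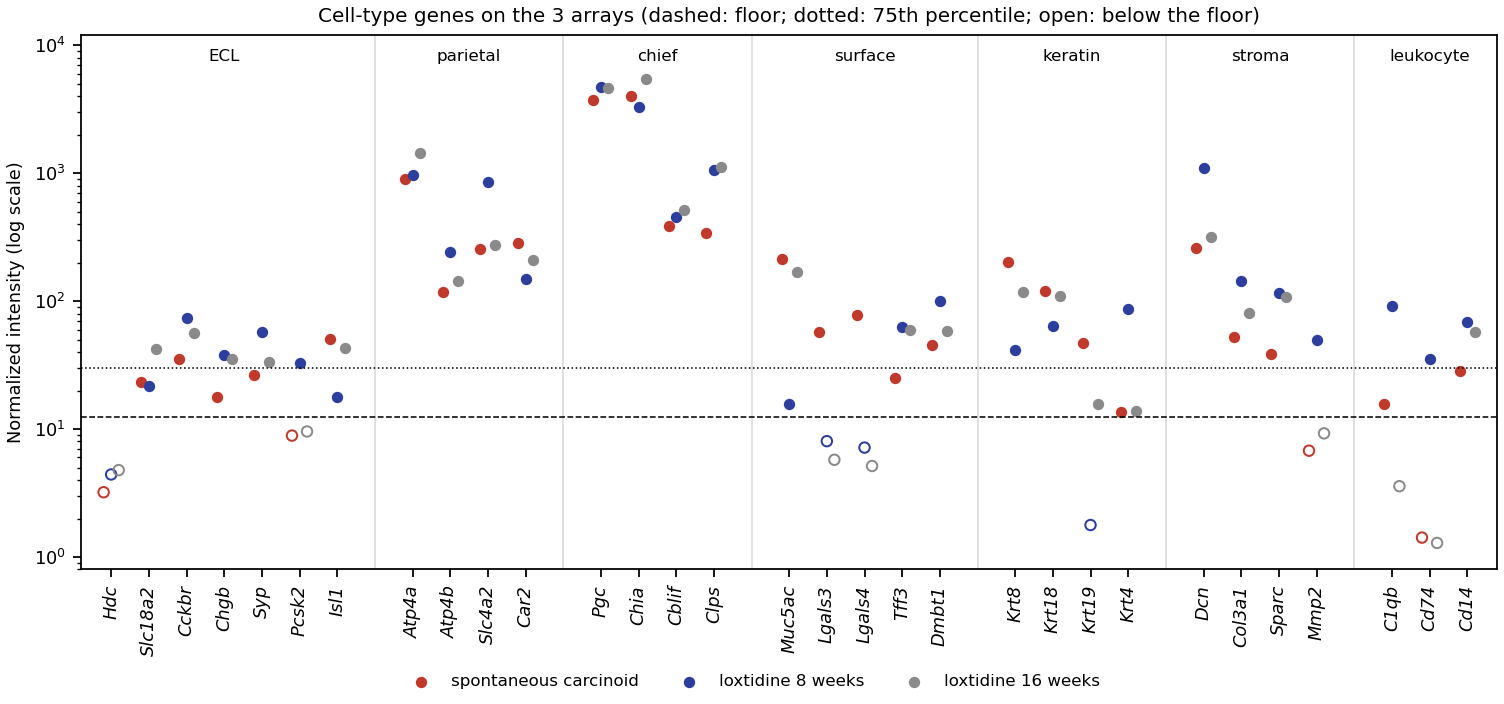
Normalized intensity (y axis, log scale) of genes of ECL, parietal, chief and surface cells, keratins, stroma and leukocytes on the 3 arrays, 1 point per gene and array. Open circles lie below the floor of 12.4 (dashed line) and the dotted line is 30.0; Hdc is open on every array, while Pgc and Chia lie between 3271 and 5448.

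Defining genes of parietal and chief cells lay far above the floor on every array. Pgc, the pepsinogen of chief cells, read 3724 in the carcinoid, 4695 at 8 weeks and 4589 at 16 weeks, and the acidic chitinase Chia read 4026, 3271 and 5448. Atp4a, the catalytic subunit of the acid pump, read 903, 966 and 1449. Hrh2, the histamine receptor of parietal cells, was near or below the floor, at 3.29, 13.1 and 15.8. The carcinoid and 8-week arrays differed 1.26-fold for Pgc, 1.23-fold for Chia and 1.07-fold for Atp4a.

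Of 11 measured parietal genes 3 read at least 2-fold higher and 2 lower, at a median of -0.09, which became 0.31 after median scaling (4 higher, 1 lower) and 1.13 as deposited (5 higher, 0 lower). Slc4a2, the basolateral anion exchanger that removes bicarbonate during acid secretion, read 254 in the carcinoid, 859 at 8 weeks and 275 at 16 weeks, 3.38-fold lower, while a further probe set lay at 0.18. The acid pump's beta subunit Atp4b was 2.06-fold lower (117 against 240), with a further probe set at 0.34 and -0.55 after median scaling. Car2, the carbonic anhydrase that supplies protons, stood 1.9-fold higher (284 against 149). The members past 2-fold upwards, the potassium channel Kcnj15, the membrane linker Ezr and the nuclear receptor Pparg, were all dim, at 40.3, 31 and 42.8, and below the floor at 8 weeks. Atp4a had dimmer probe sets at 2.15 and 0.33.

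Of 13 measured chief cell and digestive enzyme genes 1 was at least 2-fold higher and 3 lower, at a median of -0.33 (1 and 1 as deposited, with a median of 0.03 against 0.45). Intrinsic factor, Cblif, read 386 in the carcinoid, 452 at 8 weeks and 512 at 16 weeks, with a further probe set at 2.38. The lower members were proteins usually made by the exocrine pancreas, but the higher one was a relative of pancreatic lipase, Pnliprp2 (25.2 against 6.82, at least 2.04-fold). The pancreatic enzymes Cela2a, Cpa1 and Prss1 did not pass 2-fold. Colipase, Clps, read 343, 1059 and 1124 (3.08-fold lower), pancreatic lipase, Pnlip, read 32.6, 128 and 9.58 (3.92-fold lower), and the elastase Cela1 read 21.2, 56.6 and 16.4 (2.66-fold lower). Clps was thus low only in the carcinoid, and Pnlip and Cela1 were high only at 8 weeks. After median scaling Clps came to -0.92.

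Surface epithelial genes held some of the largest differences. Lgals4, a galectin of gut epithelium, read 77.9 in the carcinoid but 7.17 at 8 weeks and 5.15 at 16 weeks, both below the floor, and was at least 6.3-fold higher than at 8 weeks. Lgals3, another epithelial galectin that is also made by macrophages, read 57.1 against 8.05 and 5.76, at least 4.62-fold higher than at 8 weeks. Both galectins were thus measured in the carcinoid alone, whereas Muc5ac, the secreted mucin of surface cells, was low at 8 weeks alone (213, 15.8 and 168). The trefoil peptide Tff1, secreted with that mucin, read 1213 and 1124, 1.08-fold apart.

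Over the list of mucins, trefoil peptides and surface cell genes, 3 of 16 were at least 2-fold higher and 3 lower, with a median of 0.06 (5 and 0 as deposited). The lower members were Tff3, the trefoil peptide of intestinal goblet cells (25.2 against 62.7, 2.49-fold), the mucosal scavenger receptor Dmbt1 (45.5 against 101, 2.21-fold) and the antimicrobial lectin Reg3g (17.4 against 45.5, 2.61-fold). For Dmbt1 both probe sets lay lower, at -1.23 and -1.15, although the second came to -0.93 after median scaling.

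Of the keratins of simple epithelium, Krt8 and Krt19 were past 2-fold higher in the carcinoid. Krt8 read 203, 41.5 and 118 on the carcinoid, 8-week and 16-week arrays, 4.89-fold higher in the carcinoid than at 8 weeks. Its partner Krt18 read 121, 64.1 and 110, 1.88-fold higher, and a further probe set of Krt18 lay at 3.47. Krt19, the keratin of ducts and surface epithelium, read 47.4 against 1.78 and 15.8, at least 3.83-fold higher. Krt20 was below the floor on every array. The tight junction scaffold Tjp1 was 2.12-fold higher (93.2 against 44). Among keratins of stratified epithelium, Krt4 was 6.35-fold lower (13.7 against 86.7) and Krt14 at least 2.01-fold lower (3.29 against 24.9), while Krt5 (19.3 against 20.5) and Krt10 (0.869 against 14.4) did not pass 2-fold. The whole list held 3 higher and 2 lower of 13, at a median of 0.24.

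Immediate early genes, which cells induce within minutes of a stimulus such as growth factor, stress or handling, held the most lower members by count. The share was larger among endothelial genes (41.7%), and as deposited the growth factor list held more lower members (10 against 8). Of 44 immediate early genes measured, 14 (31.8%) read at least 2-fold lower in the carcinoid and 1 (2.27%) higher. The median was -0.52 against -0.02 for all genes, -0.36 after median scaling and 0.07 as deposited, where all genes lay at 0.45. With the floor at 30.0 there were 7 lower and 0 higher of 32, and among EST probe sets 5 lower and 0 higher of 15. The summed intensity of the list was 2850 in the carcinoid, 7178 at 8 weeks and 2215 at 16 weeks, and without Egr1 it was 2584, 4052 and 2119.

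Subunits of the AP-1 transcription factor differed in size. Jun read 69.3 in the carcinoid, 424 at 8 weeks and 40 at 16 weeks, 6.12-fold lower. A further Jun probe set read 13.3 against 516 (-5.28), and another 16.5 against 20.7 (-0.33). Junb read 72.8, 272 and 47.9, 3.73-fold lower, and its other probe set lay at -0.86. Fos was measured at 76.8 and 117, 1.52-fold lower, with 3 probe sets between -1.98 and -0.61, and Fosl2 was 2.51-fold lower (17.3 against 43.4). Egr1 lay at -3.56 and -2.91 on the log2 scale at its brighter probe sets, while its dimmer ones lay at -0.25 and 1.61.

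For Cebpb, Nfkbia and Zfp36 the 8-week array read highest and the 16-week array lowest. Cebpb, a factor of the acute phase response, read 32, 137 and 12.5 on the carcinoid, 8-week and 16-week arrays, 4.28-fold lower. Nfkbia, the inhibitor of NF-kappaB, read 36.4, 133 and 13.1, 3.65-fold lower. Zfp36, which destabilises cytokine mRNAs, read 55.2, 179 and 24.1, 3.24-fold lower. Socs3, an inhibitor of cytokine signalling, read 14.9, 16 and 71.1, highest at 16 weeks. Cyclooxygenase Ptgs2 was below the floor in the carcinoid (4.92 against 37.8) and at least 3.05-fold lower, with a second probe set at 0.92. The exception above 2-fold was the cyclic AMP modulator Crem, at least 3.59-fold higher at its brightest probe set (44.4 against 10.9), whose others reached down to -0.63. Id1, an inhibitor of differentiation factors, read 139 against 69.7, just short of 2-fold higher, with a second probe set at 1.49.

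Ornithine decarboxylase, Odc1, is both an immediate early gene and the first enzyme of polyamine synthesis. It read 10.9 in the carcinoid, 76.2 at 8 weeks and 11.6 at 16 weeks, at least 6.16-fold lower than at 8 weeks. Of the antizymes that restrain it, Oaz2 was 2.35-fold lower (80.1 against 188) and Oaz1 1.75-fold lower (201 against 352). Amd1, the next decarboxylase of the pathway, was at least 2.44-fold higher (30.2 against 2.05). Of 7 polyamine genes 1 was higher and 2 lower, and Oaz2 came to -0.88 after median scaling.

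Among heat shock proteins and chaperones the counts of calls changed with the scaling, as did those of all genes. Of 34 measured 6 read at least 2-fold lower and 1 higher, at a median of -0.29 against -0.02 for all genes. Median scaling gave 2 lower and 4 higher with a median of 0.08, against 0.07 for all genes. Intensities as deposited gave 1 lower and 7 higher with a median of 0.42, against 0.45. The list thus lay near all genes under those other scalings. Besides Dnajb1, the mitochondrial chaperonin Hspd1 read 317, 1030 and 381, 3.25-fold lower, with a further probe set at -0.04. The endoplasmic reticulum chaperone Hspa5 (149 against 337) and the small heat shock protein Hspb1 (161 against 340) were 2.25-fold and 2.12-fold lower. The 4 probe sets of Hspb1 ran from -3.91 to 1.08. Ppib, a folding enzyme of the endoplasmic reticulum, was 3.68-fold higher (156 against 42.3), with a second probe set at -0.96. Of the 6 lower members only Dnajb1 remained past 2-fold under all 3 scalings.

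Ribosomal proteins formed the list with the highest median. Of 39 measured, 11 (28.2%) read at least 2-fold higher in the carcinoid and 2 (5.13%) lower, and 28 lay above 0. The median was 0.53 against -0.02 for all genes, 0.94 after median scaling and 1.38 as deposited. The summed intensity was 13731 in the carcinoid, 9899 at 8 weeks and 11154 at 16 weeks. Over the 18 genes with EST probe sets the median was 0.16, with 5 higher and 0 lower.

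Among large subunit proteins, Rpl19 read 880, 300 and 594 on the carcinoid, 8-week and 16-week arrays, 2.93-fold higher than at 8 weeks. Rpl7a read 276, 78.5 and 195, 3.52-fold higher, and Rpl11, which also binds the p53 regulator Mdm2, read 401, 149 and 324, 2.69-fold higher. Rpl23 was 3.22-fold higher (598 against 186), but its second probe set lay at -0.06. Of the small subunit, Rps3a (475 against 168) and Rps23 (180 against 75.2) were 2.82-fold and 2.4-fold higher. The lower members were Rpl17 (24.9 against 72.3, 2.91-fold) and Rpl30 (18.3 against 46.7, 2.54-fold). For the higher genes named here the carcinoid stood highest, 16 weeks between and 8 weeks lowest.

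Translation factors had a median of 0.36, with 4 of 20 at least 2-fold higher and 1 lower. Eif2b4, a subunit of the exchange factor that recycles eIF2, read 95 against 19.5, 4.87-fold higher, and Eif3d, a cap-binding subunit of eIF3, read 106 against 27.5, 3.84-fold higher. A further exchange factor subunit, Eif2b5, was below the floor at 8 weeks (34.2 against 0.999) and at least 2.76-fold higher. Eif2s3, a subunit of eIF2 itself, was 4.02-fold lower (12.5 against 50.4). Eif4a2, Eif3d and Eif2b4 read 327, 104 and 84.9 at 16 weeks.

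**Figure D4:**
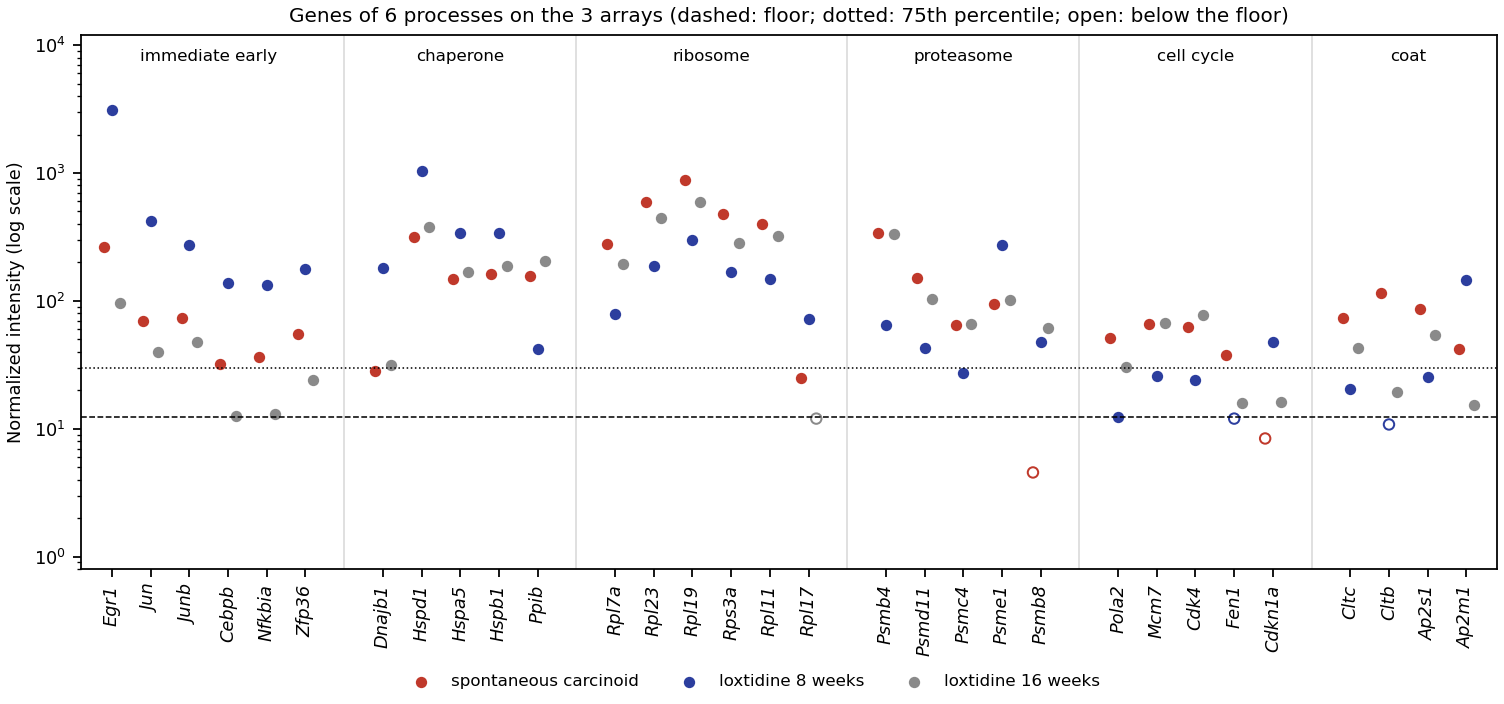
Normalized intensity (y axis, log scale) of genes of 6 processes on the 3 arrays, 1 point per gene and array, with open circles below the floor of 12.4 (dashed line) and the dotted line at 30.0. For the 6 immediate early genes the 8-week point lies above both others, and for 5 of the 6 ribosomal genes it lies below both.

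The proteasome and ubiquitin list had a median of 0.48, with 10 of 33 (30.3%) at least 2-fold higher and 2 (6.06%) lower. The members included subunits of both parts of the proteasome. Of the regulatory particle, Psmd11 read 152, 42.5 and 103 (3.58-fold higher) and the ATPases Psmc4 and Psmc1 read 64.6 against 27.1 (2.38-fold) and 47.5 against 11.7 (at least 3.84-fold). Of the catalytic core, Psmb4 read 337, 65.1 and 334, 5.18-fold higher, though its 3 probe sets reached down to -0.08. Psmb1 was at least 3.05-fold higher (37.7 against 7.68).

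The lower members were Psmb8 and Psme1. Psmb8, a catalytic subunit of the immunoproteasome, read 4.55 in the carcinoid, below the floor, against 47.8 at 8 weeks and 61.2 at 16 weeks, at least 3.86-fold lower. Psme1, a subunit of the PA28 activator, read 94.6, 274 and 101, 2.89-fold lower, with a second probe set at 0.25. Their partners did not read lower, with the immunoproteasome subunit Psmb9 at 18.8 against 17 and the PA28 subunit Psme2 at 56.9 against 38.6. The ubiquitin ligase Nedd4 was 2.01-fold higher (76.4 against 38). At the higher floor of 30.0 the proteasome and ubiquitin list held 5 higher and 1 lower of 27, at a median of 0.16. Among 12 genes with EST probe sets 3 were higher and 0 lower, at a median of 0.24.

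Of the clathrin coat list, 8 of 20 (40%) were at least 2-fold higher and 2 (10%) lower, at a median of 0.34. Clathrin heavy chain, Cltc, read 73.1, 20.3 and 43.1, 3.61-fold higher. The light chain Cltb was at least 9.29-fold higher at its brighter probe set (115 against 10.8), and its other probe set lay at -0.72. Within the AP-2 adaptor, which gathers cargo at the plasma membrane, the sigma subunit Ap2s1 was 3.39-fold higher (85.9 against 25.3) and the mu subunit Ap2m1 3.45-fold lower (42.3 against 146), so that subunits of the same complex stood on opposite sides. Arrb2, which links receptors to the coat, was 4.72-fold higher (60.3 against 12.8). Among 8 genes with EST probe sets 0 were higher and 1 was lower.

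Lysosomal genes stood on both sides. Of 25 measured 6 were at least 2-fold higher and 4 lower, at a median of 0.07 (8 and 1 as deposited). Besides Cd63 and Itm2b, the higher ones were the proton pump subunits Atp6v1f (83.6 against 24.4, 3.43-fold) and Atp6v0a1 (51.1 against 13, 3.93-fold), the acid phosphatase Acp2 (61 against 11.1, at least 4.93-fold) and the protease Ctsc (35.4 against 12.2, at least 2.87-fold). The lower ones were the phosphatase Acp5 (6.93 against 40.4, at least 3.26-fold) and the cathepsins Ctsk (5.41 against 27.8, at least 2.25-fold) and Ctss (22.2 against 46.5, 2.09-fold), all 3 known from macrophages or osteoclasts, and the glucosidase Gaa (25 against 54.2, 2.17-fold). With the floor at 30.0 there were 4 higher and 0 lower of 19.

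Genes of vesicle fusion were called less often than all genes. Of 36 measured, 3 (8.33%) were at least 2-fold higher and 2 (5.56%) lower, against 14.6% and 13.9% of all genes. The median was 0.21 against -0.02 (10 and 1 as deposited). Stx4, a syntaxin of the plasma membrane, was at least 2.83-fold higher (35.1 against 9.27), and Rab3c, a GTPase of secretory vesicles, was 2.37-fold lower (18.6 against 44.1).

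Cell cycle and replication genes included more higher than lower members, nearly all of them dim. Of 32 measured 9 (28.1%) read at least 2-fold higher and 2 (6.25%) lower, while the median was only 0.08 (0.41 as deposited, against 0.45). Pola2, a subunit of DNA polymerase alpha, read 51.4, 12.4 and 30.6 on the carcinoid, 8-week and 16-week arrays, 4.14-fold higher. The replicative helicase subunit Mcm7 (65.9 against 26) and the G1 kinase Cdk4 (62.8 against 24.1) were 2.54-fold and 2.6-fold higher, and both read as high at 16 weeks (67.2 and 77.7). The flap nuclease Fen1 was at least 3.02-fold higher (37.4 against 12).

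With the floor at 30.0, 2 of 18 stayed past 2-fold, namely Mcm7 and Cdk4, and 0 were lower. The lower members in the first count were the kinase inhibitor Cdkn1a (8.39, below the floor, against 47.9, at least 3.87-fold), with both probe sets lower, and the phosphatase Cdc25b (17.9 against 47.1, 2.63-fold), whose second probe set lay at 0.42. Pcna, the sliding clamp of DNA replication, stood on the other side from Mcm7 at 27.3 against 40.8, and the cyclin Ccnd1 read 43.7 against 51.1. The list therefore did not move as a block on these arrays.

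Apoptosis regulators had 3 of 14 at least 2-fold higher and 4 lower, with a median of -0.58 (4 and 1 as deposited, with a median of 0.08 against 0.45). The higher members were the mitophagy receptor Bnip3l (131 against 42.8, 3.07-fold), the death promoter Bad (39.9 against 3.65, at least 3.23-fold) and the caspase Casp2 (62.5 against 6.55, at least 5.05-fold), for which a further probe set reached -1.85. The lower ones were Bok (86.7 against 184, 2.12-fold), Bcl2l2 (23.6 against 56.6, 2.4-fold), Hrk and Faslg.

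Growth factors and their receptors had 6 of 50 at least 2-fold higher and 13 (26%) lower, at a median of -0.23 (0.17 as deposited, against 0.45). As deposited the counts were 10 and 10. The growth hormone receptor Ghr read 110 in the carcinoid, 545 at 8 weeks and 337 at 16 weeks, 4.94-fold lower, with its other probe sets below the floor. Igf1, a growth factor that growth hormone induces, read 1090, 373 and 3724 in the same order, 2.92-fold higher than at 8 weeks, and its second probe set lay at -0.67. The binding proteins Igfbp5 (21.9 against 66.2) and Igfbp2 (11.8 against 36.9) were 3.03-fold and at least 2.98-fold lower.

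The other lower members were mostly dim. Gdnf, a ligand of the Ret receptor complex, was at least 4.69-fold lower (9.18 against 58) and read 57.7 at 16 weeks, so that the carcinoid alone was below the floor. Csf1, the growth factor of macrophages, was 3.84-fold lower (16.3 against 62.7). Vegfb and the VEGF receptor Flt1 were at least 3.93-fold and 3.44-fold lower. Of the EGF family, Hbegf was at least 2.81-fold lower (5.18 against 34.7) and Tgfa at least 2.54-fold higher (31.5 against 2.49).

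Lineage transcription factors had 5 of 23 at least 2-fold higher and 4 lower, at a median of 0.05 (8 and 3 as deposited). Gata6, which specifies gastric and other foregut epithelium, read 340, 85.1 and 387 on the carcinoid, 8-week and 16-week arrays, 4-fold higher than at 8 weeks. The other probe sets of Gata6 were below the floor on every array. Foxa2, another foregut factor, was at least 4.03-fold higher (49.8 against 2.49) and read 38.6 at 16 weeks. Pdx1, a factor of antrum, duodenum and pancreas, was at least 2.67-fold lower (10.6 against 33), and Neurod2, usually neuronal, at least 4.44-fold lower (11.4 against 55).

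Genes of other cells that a gastric cell preparation can hold are given next, beginning with stroma. Of 52 measured matrix and fibroblast genes 11 (21.2%) were at least 2-fold lower and 5 (9.62%) higher, at a median of -0.29 (0.17 as deposited, against 0.45). As deposited 3 of 50 were lower and 9 higher, beside 5.91% of all genes lower and 26.4% higher. The summed intensity was 1851 in the carcinoid, 3089 at 8 weeks and 1690 at 16 weeks, and without Dcn 1589, 1998 and 1374.

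Decorin, Dcn, a proteoglycan of fibroblasts, read 262, 1090 and 317, 4.16-fold lower at its brightest of 4 probe sets, which reached up to 0.31. The fibril collagen Col3a1 (52.3 against 144) and the matrix protein Sparc (38.5 against 116) were 2.76-fold and 3.01-fold lower, with every measured probe set below 0. Col1a1 (57.8 against 77) and Col1a2 (23.3 against 29.2), the chains of the main fibril collagen, lay 1.33-fold and 1.25-fold lower. Mmp2, a protease that cuts matrix proteins, was at least 4-fold lower (6.78 against 49.5). Elastin, Eln, was at least 3.75-fold higher (46.4 against 7.3), and the protease inhibitor Timp1 was 2.15-fold higher (40.2 against 18.7).

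Endothelial genes had the lowest median of all lists, -0.76 (-0.74 after median scaling and -0.39 as deposited), with 11 of 12 below 0. Of these 5 were at least 2-fold lower and 1 higher, and as deposited 2 and 1. Besides Flt1, the adhesion molecules Icam1 (6.78 against 37.8, at least 3.05-fold) and Selp (24.9 against 60.1, 2.42-fold) and the vasoconstrictor Edn1 (11.9 against 29.6, at least 2.39-fold) were lower. The defining endothelial markers were dim, with Pecam1 at 21.4 and 22.6 and with Vwf and Kdr below the floor on both arrays. Icam1 and Selp are also induced by inflammatory signals.

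Of 55 measured leukocyte, MHC and complement genes 11 (20%) were at least 2-fold lower and 3 (5.45%) higher, with a median of -0.33 (0.16 as deposited, against 0.45). As deposited 5 of 54 were lower and 6 higher, beside 5.91% of all genes lower and 26.4% higher. C1qb, a complement subunit made by macrophages, read 15.7 in the carcinoid, 92 at 8 weeks and 3.58 at 16 weeks, 5.88-fold lower than at 8 weeks, with a second probe set below the floor on every array. C1qc, another chain of the same complex, read 57.1, 64.7 and 44, 1.13-fold lower. The neutrophil chemokine Cxcl2 was at least 4.69-fold lower (5.67 against 58), and Cd74, the invariant chain of MHC class II, at least 2.86-fold (1.42 against 35.3), with both probe sets lower. The monocyte receptor Cd14 (28.2 against 69.2) and the monocyte chemokine Ccl2 (21.9 against 52) were 2.45-fold and 2.38-fold lower. Of T-cell genes Cd3g, Cd3d, Cd4 and Cd8b were at least 2-fold lower, whereas Lck (32.6 against 57), Cd2 (14.6 against 3.28) and Cd5 (15.6 against 0.999) did not pass 2-fold. Ptprc, the common leukocyte marker, was near the floor (6.61 against 16), and with the floor at 30.0 only 2 of 26 members stayed past 2-fold, both lower.

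Mast cell genes had 1 of 7 at least 2-fold lower and 0 higher, at a median of -0.73 (1 and 1 as deposited). The chymase Mcpt1l1 read 29.2, 146 and 43.2, 5-fold lower, and the tryptase Tpsb2 read 69.5 against 122, 1.75-fold lower, while Tpsab1, another tryptase, read 37.8 against 21, 1.8-fold higher. Neuron and glia genes had 6 of 27 at least 2-fold lower and 1 higher (2 and 5 as deposited), with the myelin gene Pmp22 4.23-fold lower (17 against 71.9).

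Smooth muscle genes had 3 of 13 at least 2-fold higher and 1 lower, although the median was -0.31 (0.01 after median scaling). Myl9, a myosin light chain, was 3.47-fold higher (72.3 against 20.8), and the actin Acta2 and calponin Cnn1 at least 2.6-fold and 2.62-fold higher, while the actin of visceral muscle, Actg2, was at least 3.15-fold lower (8.9 against 39). Erythroid genes had 0 of 8 past 2-fold, with the globins Hbb-b1 and Hbb at 71.7 against 109 and 33.9 against 44.9.

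Glycolysis had 1 of 20 at least 2-fold higher and 3 lower, at a median of -0.11 (2 and 1 as deposited, and a median of 0.15 after median scaling). Against the high reading of Aldoa stood Eno1, the enolase, at 91.6 against 184 (2.01-fold lower), whose second probe set lay at 0.66. Mitochondrial respiratory genes had 5 of 34 higher and 5 lower (14.7% each), near the 14.6% and 13.9% of all genes, at a median of -0.23. After median scaling there were 7 and 3 with a median of 0.03, and as deposited 10 and 1. The ATP synthase stalk subunit Atp5po was 5.88-fold higher (227 against 38.6) with a second probe set at -0.88, and Cox4i1, a subunit of cytochrome oxidase, was 2.66-fold higher (631 against 237) with probe sets down to -0.33. Other subunits of the same oxidase were lower, Cox5b 3.14-fold (69.9 against 219) and Cox6b1 2.21-fold (1140 against 2517), of which Cox6b1 had both probe sets below 0 and Cox5b a second at 0.97.

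Detoxification and redox genes had 9 of 54 higher and 9 lower (16.7% each), near the 14.6% and 13.9% of all genes. The median was -0.12 (0.11 after median scaling). As deposited 13 were higher and 4 lower. Besides Gsto1 and Gstp1, the microsomal transferase Mgst3 (490 against 150, 3.26-fold), the gastrointestinal glutathione peroxidase Gpx2 (109 against 42.5, 2.57-fold) and Gclm, a subunit of the enzyme that starts glutathione synthesis (96.8 against 40.8, 2.37-fold), were higher. These genes read 373, 93.4 and 77.5 at 16 weeks. Within families members stood on opposite sides, as the transferases Gstm2 (113 against 39.7, 2.85-fold higher) and Gstm1 (93.4 against 187, 2.01-fold lower) and the aldehyde dehydrogenases Aldh2 (50.7 against 19, 2.67-fold higher) and Aldh1a1 (39.8 against 85.5, 2.15-fold lower) did. Probe sets of Gstm2 and of Gstm1 disagreed in sign. The lower ones included the transferase Gstm7 (8.3 against 82.8, at least 6.7-fold), the plasma peroxidase Gpx3 (46.6 against 124, 2.67-fold), the peroxiredoxin Prdx6 (6.61 against 42.5, at least 3.44-fold) and the cytochrome P450 enzymes Cyp2a1, Cyp4a1 and Cyp3a18.

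Apolipoproteins and lipid carriers had 1 of 18 at least 2-fold higher and 3 lower, at a median of -0.28 (2 and 2 as deposited). Clusterin, Clu, read 19.2 in the carcinoid against 79.8 at 8 weeks and 96.8 at 16 weeks, 4.17-fold lower than at 8 weeks. Apoc3 was at least 7.04-fold lower at its brightest probe set (10.3 against 87.1), and its other probe sets reached 1.74. Ion channel subunits had 7 of 44 (15.9%) higher and 6 (13.6%) lower, near the 14.6% and 13.9% of all genes (8 and 4 as deposited). The epithelial sodium channel subunit Scnn1a (42.7 against 3.42) and the calcium channel subunit Cacnb1 (49.5 against 11) were at least 3.45-fold and 4-fold higher, and the canonical TRP channel Trpc1 was 3.2-fold lower (13.7 against 44), with a second probe set at 0.14.

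Outside the lists, several bright genes were higher in the carcinoid under each of the 3 scalings. They were chosen from that set after their values had been seen. Actin regulators were among them, with Pfn1, which supplies actin monomers to filaments, at 470, 144 and 304 on the carcinoid, 8-week and 16-week arrays (3.28-fold). RNA-binding proteins were others, with Hnrnpa2b1 at 409, 124 and 270 (3.29-fold), Ddx39b, a helicase of mRNA export, at 156, 26 and 107 (6.02-fold), and Rbm39, a splicing factor, at 98.3, 24.5 and 131 (4.01-fold). Trafficking GTPases stood with them, Arf1 at 179, 59.2 and 194 (3.02-fold) and Rab11a at 223, 80.9 and 140 (2.76-fold). Capn9, a calpain known from the stomach, read 106, 29.2 and 46.5 (3.64-fold). For each of these genes the 8-week reading was the lowest of the 3.

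On the lower side under each of the 3 scalings, and outside the lists, stood Ppp1r15a, the phosphatase subunit induced by cell stress (29.7, 118 and 33.9, 3.99-fold), and Cited2, a transcriptional regulator that hypoxia and growth factors induce (16.7, 86.1 and 35.4, 5.14-fold). Slc6a9, a glycine transporter (24.2, 106 and 31.7, 4.36-fold), and the vitamin D receptor Vdr (7.36, 63.6 and 12, at least 5.14-fold) were also lower. For these genes the 8-week array read highest.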

How the data were processed

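Total RNA of 3 cell preparations from Mastomys stomach was hybridised to an Affymetrix rat expression array, 1 array per sample, per the labels. The values are the authors' deposited intensity, linear, 1 per probe set and array. How the authors summarised, background-corrected and scaled them is not given in the sources used here. An array intensity has no read depth. Rat probes met Mastomys RNA, so each probe set was compared only with itself.

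The 3 arrays were quantile normalized. Values below the floor, the pooled median of non-control values (12.4), were raised to it before log2. Symbols came from the platform annotation given with the data, in which 7006 non-control probe sets had 1 symbol, 308 several and 1426 none. Where a gene had several, the probe set brightest on average as deposited stood for it.

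Named genes were the 12 largest differences each way among genes at or above 30.0 on both arrays, the 6 largest bounds each way, the 12 furthest each way among genes whose probe sets agreed, up to 4 per list and a set of gastric genes named always. Not all of them are printed. Further list members, markers and genes outside the lists were chosen after their values had been seen. The comparison, the 31 lists and the rule were chosen with earlier results of these data known. No test was possible with 1 array per group, and no sequences were used.

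Alternatives were intensities as deposited, scaling by the median, quantile normalization of the 2 arrays alone, floors at the 25th (4.2) and 75th (30.0) percentiles, log2 of the value plus the floor, the median of a gene's probe sets, EST probe sets only, and leaving out shared or cross-hybridising probe sets. The combined rule of 3 scalings, the higher floor and no opposite probe set was added after seeing the data. The steps were tested on simulated data. Python 3.11.15, pandas 2.3.3, numpy 2.4.6, scipy 1.17.1 and matplotlib 3.10.9 were used.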

Additional observations from a re-analysis of the deposited data

How the results depend on the processing

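No paired analysis was possible because each group had 1 array. Probe sets at least 2-fold higher or lower numbered 367 and 354. They came to 769 and 110 with intensities as deposited, 1004 and 1013 with the floor at the 25th percentile, 140 and 121 with it at the 75th percentile, and 140 and 133 with EST probe sets only. The share of higher ones was 51%, 87.5% as deposited and 62.7% with arrays scaled by their medians. Fewer probe sets enter under the higher floor and the EST restriction. Genes called in each of 3 scalings with the higher floor and no probe set of opposite sign, a rule chosen after seeing the data, came to 118 higher and 41 lower. List medians are given less that of all genes. The ribosomal list lay at 0.93 as deposited, 0.87 with median scaling and 0.10 over its 18 genes with EST probe sets. With EST probe sets the leukocyte list lay at -0.86 (5 genes), detoxification at -0.41 (15 genes) and ion channels at 1.15 (5 genes). In the other 233 of 239 settings of the lists, the median stayed within the spread of its members' median. Of 979 settings of the named genes 815 moved by less than the SD between probe sets, 162 by more, and 2 reversed. With the median over all probe sets of a gene Apoc3 came to 1.52 and Casp2 to -0.14, since their probe sets disagreed. The cause of the other shifts was not tested. Values near the floor cannot be told from background at this signal, since control probe sets without a target also reached it.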
